A study of Mus musculus with 6 samples.

Results

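The genes described here are 40 genes of DNA replication and of the G1/S transition, the step at which a cell commits to copying its genome. They were chosen by name, and each symbol matched exactly 1 of the 50600 rows of the deposited gene tables, so all 40 were found. RNA sequencing had been done on whole liver of C57BL/6 mice 1 month after birth. The 3 Dicer LKO libraries (genotype Dicerloxp/loxp;Alb-cre) came from mice with loxP-flanked Dicer alleles and a Cre recombinase gene under the albumin promoter, which drives recombination in hepatocytes. The 3 control libraries (genotype Dicerloxp/loxp) carried the same loxP-flanked alleles without Cre, although the design text calls this group wild type. Dicer is the ribonuclease that releases mature miRNAs from their hairpins, and the question is how liver transcripts differ once hepatocytes lack it. Which other liver cells kept the enzyme was not measured. Nothing in the labels shows that the libraries of a group came from separate animals, so p-values measure only the spread between these libraries, which may be technical.

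Replication starts at origins. The origin recognition complex, CDC6 and CDT1 load the MCM2 to MCM7 ring onto DNA in G1, and CDC45, the GINS complex and MCM10 turn that ring into an active helicase. DNA polymerase alpha with its primase begins each strand, polymerases epsilon and delta extend it on the PCNA clamp loaded by replication factor C, and FEN1 and DNA ligase 1 join the lagging-strand fragments. Cyclins D and E release E2F transcription factors from retinoblastoma proteins, and E2F1 and E2F2 activate most of these genes, while E2F7 and E2F8 repress them. Most hepatocytes of the young liver are leaving the cell cycle as they mature and become polyploid, so these genes are known as low in adult liver outside regeneration.

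Promoter sequence was not used in choosing the genes by name. Since E2F factors are known to activate most of them, an excess of E2F matches was likely in advance. A gene was counted when its window, 250 bases before to 50 after an annotated start in the RefSeq table (build GRCm38.p6), held TTTCCCGC, TTTGGCGC, TTTCGCGC or TTTGCCGC on either strand, all forms of the E2F consensus. Such a match was present for 16 of the 33 genes in that table (48.5%), against 4.51% of the 10145 tested genes in it and 2.60% of all 27025 genes. The CCAAT box, the site of the factor NF-Y, was present for 21 of the 33 (63.6%), against 43.0% of the tested genes. Ccnd1, Ccne2, Mcm4, Pole, Gins1, Gins2 and Gins4 were not in the table. A match is a description of letters and does not show that a factor binds. The windows of Mcm6 and Mcm5, which encode helicase subunits, and of Mcm10 are shown because Mcm6 and Mcm10 had the lowest p of the 40 genes and Mcm5 belongs to the same ring as Mcm6; capitals mark E2F matches, which can overlap on opposite strands.
Mcm6, chr1:128359656-128359955, minus strand: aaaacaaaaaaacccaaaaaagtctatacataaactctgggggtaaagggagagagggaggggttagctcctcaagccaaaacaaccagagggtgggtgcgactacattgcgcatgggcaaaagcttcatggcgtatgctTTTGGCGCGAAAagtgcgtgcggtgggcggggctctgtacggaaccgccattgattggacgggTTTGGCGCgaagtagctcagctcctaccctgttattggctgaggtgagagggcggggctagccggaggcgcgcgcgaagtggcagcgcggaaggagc
Mcm5, chr8:75109259-75109558, plus strand: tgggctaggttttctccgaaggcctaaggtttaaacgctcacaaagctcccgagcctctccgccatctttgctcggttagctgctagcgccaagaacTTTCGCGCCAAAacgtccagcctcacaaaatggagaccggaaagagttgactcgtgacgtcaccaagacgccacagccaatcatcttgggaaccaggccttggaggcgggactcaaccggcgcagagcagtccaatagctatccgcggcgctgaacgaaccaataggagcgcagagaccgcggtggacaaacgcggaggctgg
Mcm10, chr2:5012742-5013041, minus strand: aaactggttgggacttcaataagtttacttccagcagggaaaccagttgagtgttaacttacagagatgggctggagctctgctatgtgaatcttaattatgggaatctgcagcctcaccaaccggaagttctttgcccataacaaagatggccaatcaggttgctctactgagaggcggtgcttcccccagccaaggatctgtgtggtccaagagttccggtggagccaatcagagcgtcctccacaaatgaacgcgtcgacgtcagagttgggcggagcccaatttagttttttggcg
Mcm6 has 3 matches, the first starting 110 bases and the last 47 bases before the annotated start. Mcm5 has 2 overlapping matches, starting 153 and 149 bases before it. None of the 4 forms lies wholly within the Mcm10 window, which does hold a CCAAT box. That window ends in tttggcg, the start of the form TTTGGCGC, and a match running past its end would not have been counted.

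Mcm7 also hosts miRNAs that Dicer would process. The mature miR-106b, miR-93 and miR-25 lie inside Mcm7 on its own strand and outside every exon of its protein-coding transcripts. Mature miRNAs were not measured in these libraries. Their sequences from RefSeq are shown with miR-16 and let-7a, miRNAs known to repress cell cycle genes, with the seed (bases 2 to 8) in capitals.
mmu-miR-106b-5p: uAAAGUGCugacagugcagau
mmu-miR-93-5p: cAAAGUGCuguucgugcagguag
mmu-miR-25-3p: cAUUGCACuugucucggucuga
mmu-miR-16-5p: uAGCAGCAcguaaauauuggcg
mmu-let-7a-5p: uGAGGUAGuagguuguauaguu
miR-106b and miR-93 share 1 seed. Its complement was found in the longest annotated 3′ untranslated region of 7 of the 40 genes (17.5%, against 14.5% of 12612 tested genes with such a region), namely Mcm3, Mcm7, Rrm2, Chaf1a, Ccnd1, E2f1 and E2f2. The miR-16 seed matched 6 of the 40 (15.0%, against 24.5%), namely Cdc6, Gins2, Chaf1a, Ccnd1, Ccne1 and E2f7. The let-7 seed matched 3 (7.5%, against 10.5%), Rrm2, E2f2 and E2f7. The miR-34 seed matched 6 (15.0%, against 17.3%), the miR-26 seed 6 (15.0%, against 11.3%) and the miR-25 seed 1 (2.5%, against 7.64%). Sites in the cyclin D1 and E2F1 transcripts are printed because these are the regulators at the top of the pathway; capitals mark the seed match (build GRCm38).
Ccnd1, miR-93 seed match, chr7:144931669-144931696, minus strand: cattccatttcaaaGCACTTTtggtcag
Ccnd1, miR-16 seed match, chr7:144930388-144930415, minus strand: tgtgcatgccaccaTGCTGCTggcccgg
E2f1, miR-93 seed match, chr2:154560205-154560232, minus strand: ggtgggctctaactGCACTTTtggtgtc
E2f1, miR-93 seed match, chr2:154559690-154559717, minus strand: ccaccctccagtctGCACTTTgatttgt
The fitted differences of these 2 genes have opposite signs, as given below. Among tested genes with a match, 6 of 7 for the miR-93 seed were higher in Dicer LKO, 3 of 3 for miR-16 and 2 of 2 for let-7. The counts were 2 of 4 for miR-34, 3 of 4 for miR-26 and 0 of 1 for miR-25. Of all tested genes among the 40, 28 of 36 were higher. Whether a match goes with direction was not tested.

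The libraries held 22257509 to 25049753 counts in Dicer LKO and 14141954 to 22152515 in control. Dicer1 was measured at 28.9, 31.2 and 24.4 CPM in Dicer LKO and at 42.5, 69.2 and 56.1 CPM in control; the groups did not overlap, and the ratio of means was 50.3%. CPM are counts set on a common library size after TMM scaling. The log2 fold change of Dicer1 was −0.99 (SE 0.20, edgeR adjusted p = 0.0622), and an exact permutation test of the CPM (two-sided) gave p = 0.1, which is as low as 3 libraries against 3 can go. The counts cover the whole gene, so the deleted part was not measured by itself. All 8 hepatocyte markers were detected, with a summed level of 61980 to 75990 CPM in Dicer LKO and 43600 to 81420 CPM in control. Among 13 heart muscle markers, 9 and 8 had no counts in Dicer LKO replicates 1 and 2, while 1 had none in Dicer LKO replicate 3 and 0 or 1 had none in each control. Control replicate 3 stood apart from the other libraries in these markers, in mitochondrial share and in depth. Its heart muscle markers summed to 184 CPM, against 21.3 to 29.0 CPM in Dicer LKO and 23.7 and 30.6 CPM in the other controls, its mitochondrial share of counts was 10.2%, against 4.62% to 6.46% in the other 5 libraries, and it had the fewest counts.

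The share of all counts that fell on the 40 genes was 0.0176% to 0.0224% for Dicer LKO and 0.0209% to 0.0244% for control, and the median gene had 56.5 to 68.5 counts per Dicer LKO library and 37.5 to 48.5 per control library. Levels between genes are compared in TPM, which corrects for transcript length. The mean TPM over 6 libraries was under 1 for 22 of the 40, and the median gene stood at 0.93 TPM, against 3.51 TPM for all genes tested. Mcm10 was highest at 24.6 TPM, followed by Pcna at 9.62, Ccnd1 at 6.29 and Gins4 at 5.88 TPM. Orc1, at 0.0283 TPM and 12 counts in all 6 libraries, was lowest. Mcm10 and Ccnd1 alone made up 15.8% to 35.7% of the summed TPM in Dicer LKO and 37.7% to 50.8% in control. Summed TPM without these 2 genes was 55.1 ± 2.77 in Dicer LKO and 52.1 ± 1.95 in control (SD, n = 3 each), and the ranges of the groups overlapped.

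**Figure D1:**
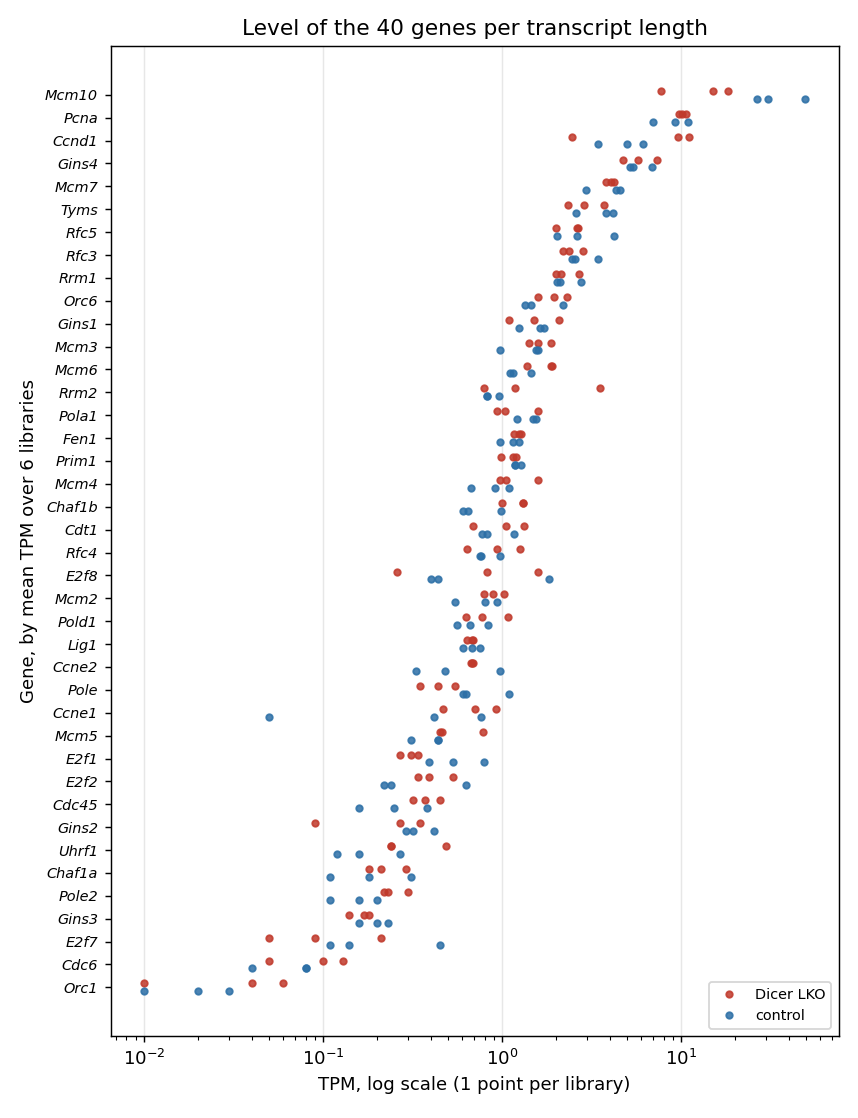
TPM of each of the 40 genes on a log scale, 1 point per library, with Dicer LKO above control in each row and genes sorted by their mean over 6 libraries. Mcm10 is the highest gene, and its 3 Dicer LKO points lie below its 3 control points.

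Of the 40 genes, 36 had enough counts to be tested; Orc1, Cdc6, Gins2 and E2f7 did not. None of the 36 was called at an adjusted p under 0.05 by edgeR's quasi-likelihood test, against 1.29% of the 14314 genes tested (185). Voom with sample weights also called 0, against 5.5% of all genes. DESeq2 called 1, Mcm10, against 7.05% of the genes to which it gave an adjusted p. At an unadjusted p under 0.05 there were 2 of the 36, Mcm10 and Mcm6, against 21.0% of all genes. Values were positive (higher in Dicer LKO) for 28 of the 36 and negative for 8. The median log2 fold change was 0.27, against −0.01 for all genes tested, of which 48.6% were positive. Log2 fold changes ran from −1.32 for Mcm10 to 1.17 for Rrm2, with quartiles of 0.03 and 0.53.

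**Figure D2:**
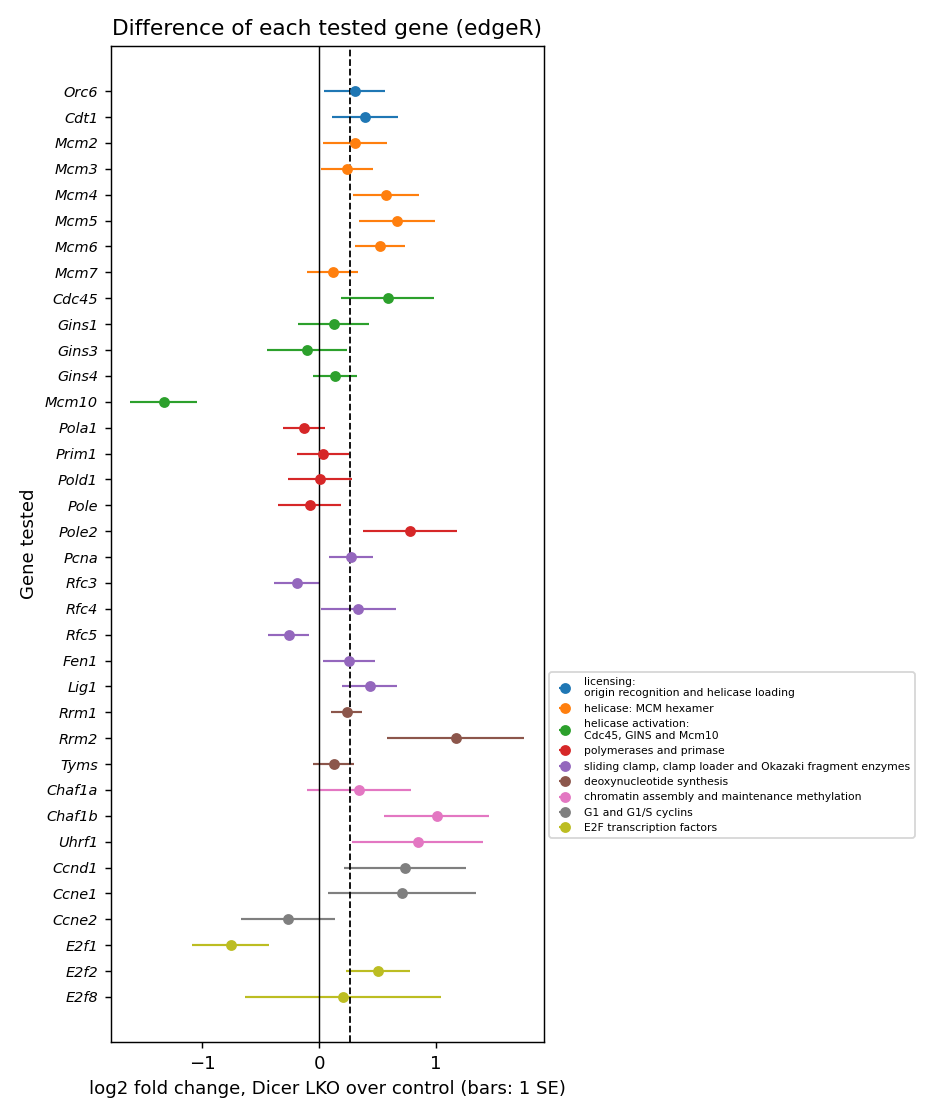
Log2 fold change of the 36 tested genes, Dicer LKO over control, from edgeR; bars show 1 SE, colours show the role and the dashed line the median of 0.27. Mcm10 lies apart at −1.32, and most other genes lie between 0 and 1.

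The groups did not overlap for 5 tested genes that were higher in Dicer LKO (13.9%, against 12.7% of all genes) and for 3 that were lower (8.33%, against 15.4%). The higher ones were Mcm5, Pole2, Lig1, Rrm1 and Chaf1b, and the lower ones Mcm10, Rfc3 and E2f1. Of these 8 genes, 5 were also without overlap in TPM. The exceptions were Lig1, Rrm1 and Rfc3. The libraries contributed unequally. Set against the control mean of each gene, the median of the 36 genes was 0.14, 0.33 and 0.21 log2 units in the Dicer LKO libraries and 0.03, 0.05 and −0.11 in the control libraries, in replicate order. The highest library was Dicer LKO replicate 2 for 15 genes (41.7%, against 19.8% of all genes) and Dicer LKO replicate 3 for 12 (33.3%, against 14.9%). The lowest was control replicate 3, the library set apart above by its depth, heart muscle markers and mitochondrial share, for 12 (33.3%, against 25.5%). Without control replicate 3 the median was 0.27 over the 37 genes then tested, and without Dicer LKO replicate 2 it was 0.23 over 36 genes.

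**Figure D3:**
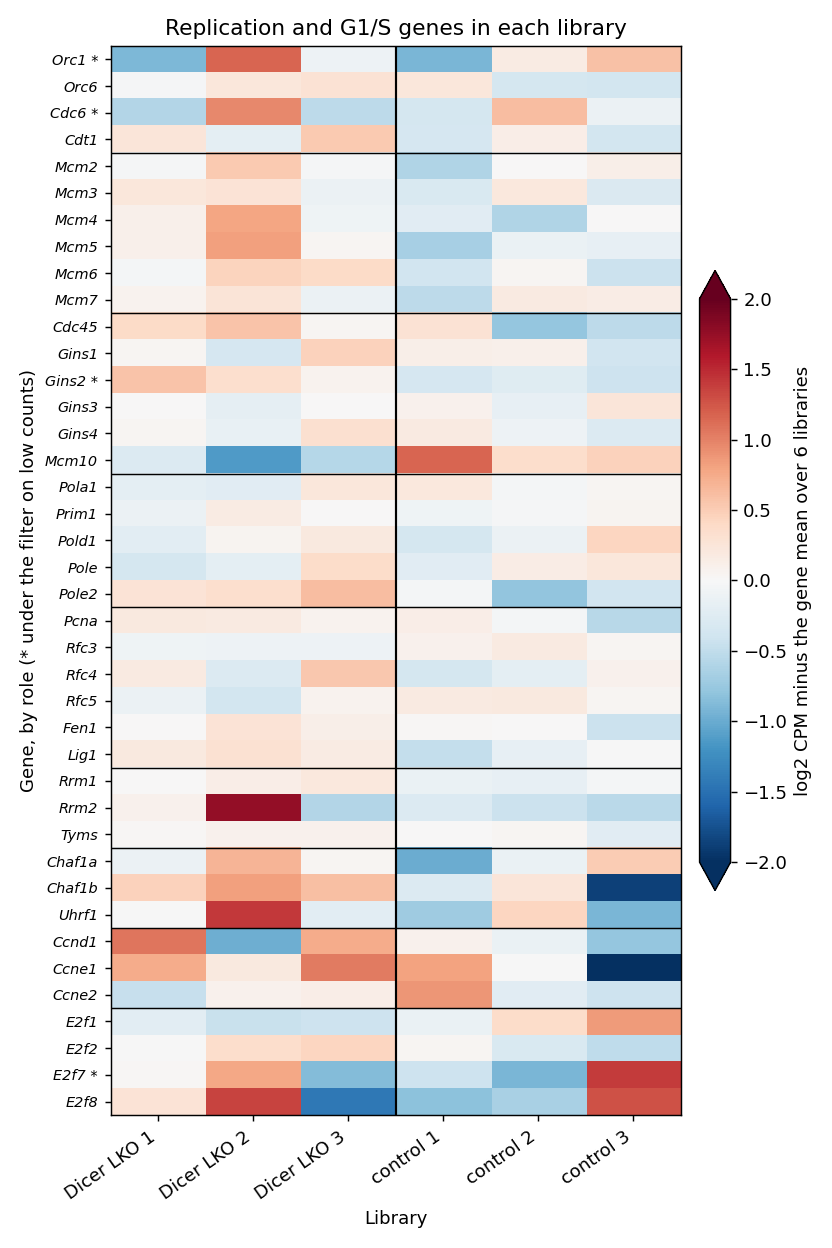
Log2 CPM of each of the 40 genes in each library minus the mean of that gene over 6 libraries, with genes grouped by role and an asterisk for the 4 untested genes. Dicer LKO replicate 2 is high for Mcm2 to Mcm7, Rrm2, Uhrf1 and E2f8 but low for Ccnd1 and Mcm10.

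Of the 4 genes that license origins, 2 were tested, and both had positive values without a call. Orc6, a subunit of the origin recognition complex, had 2.61, 3.10 and 3.23 CPM in Dicer LKO and 3.11, 2.06 and 2.04 CPM in control, with a log2 fold change of 0.30 (SE 0.26, adjusted p = 0.548). Cdt1, which brings the MCM ring to the origin, had 3.12, 2.29 and 3.78 CPM in Dicer LKO and 2.07, 2.88 and 2.04 CPM in control (0.39, SE 0.28, adjusted p = 0.462). The groups overlapped for both genes. Cdc6, the loading ATPase, had only 5 to 14 counts in any library, and Orc1 had 1 to 4, so a difference was not detectable at this depth. The value of Orc6 was 0.54 without control replicate 1, and that of Cdt1 was 0.215 without Dicer LKO replicate 3. Orc6 overlaps Vps35 and Cdt1 overlaps Gm20388, as 16 of the 40 genes overlap an annotated gene with counts, and without a known strand setting reads from such neighbours cannot be told apart with certainty.

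All 6 subunits of the MCM2 to MCM7 ring had positive values, from 0.12 for Mcm7 to 0.66 for Mcm5, with a median of 0.42. Mcm6 had 5.64, 7.86 and 7.49 CPM in Dicer LKO and 4.42, 5.91 and 4.27 CPM in control. Its log2 fold change of 0.52 (SE 0.21, adjusted p = 0.218) had the lowest p of the ring; it is named for that reason, after its values were seen. Mcm5 had 1.93, 3.15 and 1.83 CPM in Dicer LKO and 1.13, 1.63 and 1.59 CPM in control, without overlap (0.66, SE 0.32, adjusted p = 0.284), and was at 0.42 without Dicer LKO replicate 2. Mcm4 had 5.32, 8.53 and 4.66 CPM in Dicer LKO and 4.24, 3.27 and 4.97 CPM in control (0.57, SE 0.28, adjusted p = 0.292), and its value was 0.31 without Dicer LKO replicate 2. In each of these 3 genes Dicer LKO replicate 2 was the highest library. Mcm2 had 3.58, 5.19 and 3.58 CPM in Dicer LKO and 2.39, 3.65 and 3.95 CPM in control (0.31, SE 0.27), and its value was 0.12 without control replicate 1 and 0.15 without Dicer LKO replicate 2. Mcm7, the host of the miRNAs above, had 11.6, 13.2 and 10.1 CPM in Dicer LKO and 7.62, 12.4 and 12.2 CPM in control, and overlaps Cops6 and Ap4m1 on the other strand. Only control replicate 1 stood below the rest for Mcm7, and without it the value was −0.08. The summed TPM of the 6 subunits was 10.05 ± 0.908 in Dicer LKO and 8.61 ± 1.53 in control (SD, n = 3 each).

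Mcm10 stood apart from the ring in level and in the sign of its difference. MCM10 is a scaffold that helps activate the helicase. Mcm10 (ENSMUSG00000026669.14, chr2:4989714-5012791, minus strand, GRCm38) had 32.1, 17.6 and 26.1 CPM in Dicer LKO, against 86.8, 49.8 and 53.4 CPM in control. Every Dicer LKO library lay below every control library. The means were 25.3 ± 7.27 CPM in Dicer LKO and 63.3 ± 20.4 CPM in control (SD, n = 3 each), a ratio of 0.399. The log2 fold change was −1.32 (SE 0.29), and the adjusted p of 0.0751 missed the threshold in edgeR. It was 0.000868 in DESeq2. In the fits that left out 1 library the value ran from −1.53 to −1.03. In TPM the libraries stood at 18.2, 7.75 and 15.0 in Dicer LKO and at 49.5, 26.6 and 30.6 in control, each above the TPM of any of the 6 ring subunits in the same library. No annotated gene with counts overlaps Mcm10. The values are for the whole gene, and which of its transcripts carried the reads was not examined, so they may not reflect the transcript that encodes full-length MCM10.

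Of the other partners of the helicase, Cdc45 had the largest value and the GINS genes had small ones of both signs. Cdc45 had 0.963, 1.10 and 0.757 CPM in Dicer LKO and 0.901, 0.432 and 0.510 CPM in control (0.59, SE 0.40, adjusted p = 0.440), and was at 0.99 without control replicate 1. Of the GINS subunits tested, Gins1 had a log2 fold change of 0.13, Gins3 of −0.11 and Gins4 of 0.14, each smaller than its SE. The sign turned for Gins1 without Dicer LKO replicate 3 (−0.097) and for Gins3 without control replicate 3 (0.0062). Gins2 had 9 to 11 counts per library in Dicer LKO and 4 to 6 in control, with every Dicer LKO library above every control in CPM but not in TPM, and was not tested.

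Polymerase genes were the flattest group, with a median log2 fold change of 0.01 over 5 genes. Pola1, the catalytic subunit of polymerase alpha, had 7.89, 7.72 and 10.6 CPM in Dicer LKO and 10.5, 8.88 and 9.31 CPM in control (−0.13, SE 0.18, adjusted p = 0.721). Prim1, the primase, averaged 2.42 ± 0.235 CPM in Dicer LKO and 2.37 ± 0.117 CPM in control (SD, n = 3 each). Pold1 and Pole, the catalytic subunits of polymerases delta and epsilon, had values of 0.01 (SE 0.27) and −0.08 (SE 0.27). Both signs turned without single libraries: Pold1 ranged from −0.15 without control replicate 1 to 0.28 without control replicate 3 and was also negative without Dicer LKO replicate 3 or control replicate 2, and Pole was positive without Dicer LKO replicate 1 (0.061), Dicer LKO replicate 2 (0.038) or control replicate 3 (0.027). Pole2, an accessory subunit of polymerase epsilon, was the exception, with 0.504, 0.524 and 0.637 CPM in Dicer LKO and 0.406, 0.240 and 0.319 CPM in control. It rests on 5 to 16 counts per library, and its log2 fold change of 0.78 (SE 0.40) had an adjusted p of 0.310.

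Among the clamp, clamp loader and fragment-joining genes, 4 of 6 were positive. Pcna had 20.4, 20.1 and 18.6 CPM in Dicer LKO and 19.5, 17.2 and 12.1 CPM in control, and its log2 fold change was 0.27 (SE 0.19, adjusted p = 0.444). Control replicate 3 was lowest, and the groups overlapped. The value was 0.13 without control replicate 3 and 0.43 without control replicate 1. Lig1 had 2.66, 2.86 and 2.59 CPM in Dicer LKO and 1.67, 2.06 and 2.30 CPM in control (0.43, SE 0.24, adjusted p = 0.341). Fen1 had a value of 0.25 (SE 0.22). The clamp loader subunits had values of both signs. Rfc4 was at 0.34 (SE 0.32), Rfc3 at −0.19 (SE 0.19) and Rfc5 at −0.26 (SE 0.18). Rfc3 had 3.17, 3.15 and 3.15 CPM in Dicer LKO and 3.56, 3.79 and 3.44 CPM in control, without overlap. Rfc4 had 1.42, 1.05 and 1.83 CPM in Dicer LKO and 0.992, 1.10 and 1.34 CPM in control, and it overlaps Eif4a2, which had many more counts, on the other strand. Its value was 0.12 without Dicer LKO replicate 3 and 0.56 without Dicer LKO replicate 2.

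Of the enzymes that supply deoxynucleotides, only Rrm2 had a value above 1. RRM2 is the small subunit of ribonucleotide reductase, made mainly in S phase. Rrm2 had 3.35, 10.7 and 2.11 CPM in Dicer LKO and 2.61, 2.35 and 2.17 CPM in control. Dicer LKO replicate 2 was far above the other 5 libraries, and Dicer LKO replicate 3 was the lowest of all. The log2 fold change was 1.17 (SE 0.59, adjusted p = 0.308) with all libraries and 0.23 without Dicer LKO replicate 2. Rrm1, the large subunit, had 10.7, 11.7 and 12.3 CPM in Dicer LKO and 9.69, 9.46 and 10.3 CPM in control (0.24, SE 0.14, adjusted p = 0.365). Tyms, which makes thymidylate, had 4.72, 4.91 and 4.94 CPM in Dicer LKO and 4.64, 4.75 and 3.95 CPM in control (0.12, SE 0.18, adjusted p = 0.736).

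The 3 chromatin genes were all positive, with a median of 0.84. Chaf1b, a subunit of the factor that deposits histones behind the fork, had 2.57, 3.29 and 2.83 CPM in Dicer LKO and 1.53, 2.21 and 0.510 CPM in control. The groups did not overlap, and the log2 fold change was 1.003 (SE 0.44, adjusted p = 0.246). It was 0.65 without control replicate 3, in which Chaf1b had 8 counts. Uhrf1, which keeps DNA methylation in place after replication, had 0.963, 2.57 and 0.837 CPM in Dicer LKO and 0.586, 1.30 and 0.510 CPM in control (0.84, SE 0.56, adjusted p = 0.436), and was at 0.20 without Dicer LKO replicate 2 and 1.41 without control replicate 2. Chaf1a had a value of 0.34 (SE 0.45), which became 0.11 when Dicer LKO replicate 2 was left out, 0.026 without control replicate 1 and 0.75 without control replicate 3.

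Ccnd1, which encodes cyclin D1, the growth factor-responsive cyclin of G1, varied most between the Dicer LKO libraries among the abundant genes. It had 57.4, 13.9 and 45.7 CPM in Dicer LKO and 29.2, 25.02 and 16.1 CPM in control. Dicer LKO replicates 1 and 3 were above all controls, and Dicer LKO replicate 2 was below all of them. The means were 39.0 ± 22.5 CPM in Dicer LKO and 23.4 ± 6.71 CPM in control (SD, n = 3 each), with a log2 fold change of 0.73 (SE 0.52, adjusted p = 0.472) and of 1.18 without Dicer LKO replicate 2 but 0.35 without Dicer LKO replicate 1. Ccnd1 overlaps Lto1 on the other strand. Ccne1, an S phase-promoting cyclin, had 1.47, 1.001 and 1.79 CPM in Dicer LKO and 1.53, 0.865 and 0.128 CPM in control (0.71, SE 0.63, adjusted p = 0.569). Control replicate 3 had 2 counts of Ccne1, and without it the value was 0.27, while it was 1.45 without control replicate 1. Its paralog Ccne2 was at −0.26 (SE 0.40), and at 0.26 without control replicate 1.

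The E2F genes also differed within the groups. E2f1, an activator, had 1.28, 1.10 and 1.11 CPM in Dicer LKO and 1.35, 1.92 and 2.68 CPM in control. All Dicer LKO libraries were below all controls (−0.75, SE 0.33, adjusted p = 0.239). The value was −0.47 without control replicate 3. E2f2, another activator, had 1.88, 2.43 and 2.55 CPM in Dicer LKO and 1.94, 1.54 and 1.34 CPM in control (0.50, SE 0.27, adjusted p = 0.333). E2f8, an S phase repressor that mouse hepatocytes need to become polyploid, had 4.04, 8.48 and 1.24 CPM in Dicer LKO and 1.89, 2.11 and 8.03 CPM in control. Each group held 1 high library, Dicer LKO replicate 2 and control replicate 3, and the log2 fold change was 0.21 (SE 0.84, adjusted p = 0.919). It was −0.56 without Dicer LKO replicate 2, −0.14 without control replicate 1, −0.095 without control replicate 2 and 1.21 without control replicate 3. E2f8 overlaps the noncoding transcript Gm2788 on the other strand. E2f7 had 4 to 15 counts per library and was not tested.

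**Figure D4:**
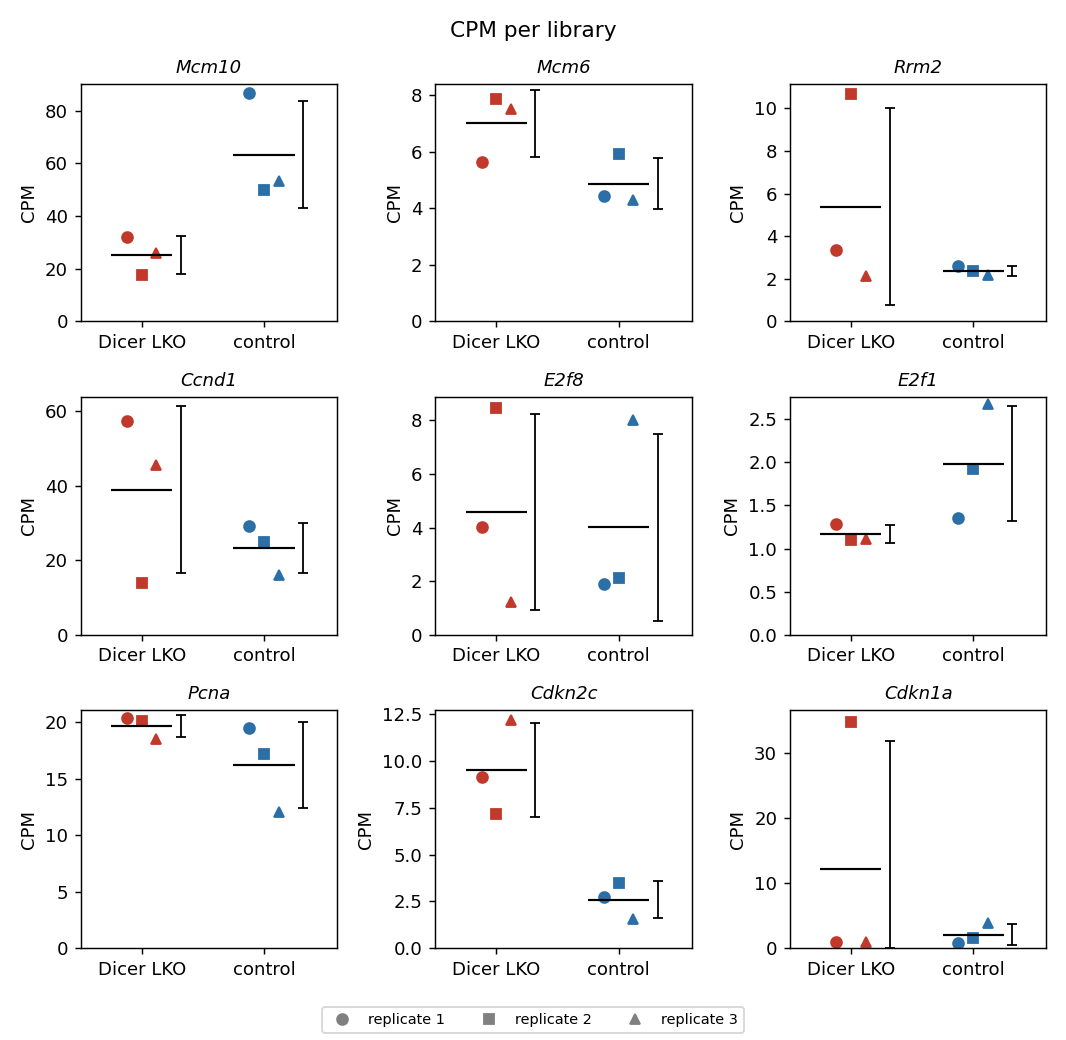
CPM per library for 9 genes in Dicer LKO and control; symbols mark the replicate, horizontal lines the mean and error bars the SD (cut at 0 for Cdkn1a in Dicer LKO). Mcm10 and Cdkn2c show no overlap between the groups, while Rrm2, E2f8 and Cdkn1a are high in Dicer LKO replicate 2 and Ccnd1 is low there.

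A list of 75 further genes of replication and G1/S control was read from the same fit. Of the 68 tested, 1 was called higher and 0 lower, against 1.29% of all genes called in either direction; 44 were positive (64.7%) and the median was 0.11. At an unadjusted p under 0.05 there were 4, against 21.0% of all genes, namely Cdkn2c, Cdc25a, Pole3 and Atad2, all positive. The called gene was Cdkn2c, which encodes p18INK4C, an inhibitor of the cyclin D-dependent kinases CDK4 and CDK6. It had 9.17, 7.195 and 12.2 CPM in Dicer LKO and 2.75, 3.51 and 1.53 CPM in control, and every Dicer LKO library was above every control. It rose by 1.86 on the log2 scale (SE 0.33, edgeR adjusted p = 0.0470). The call lay near the threshold: without 1 library the value ran from 1.63 to 2.16, but each of the 6 fits lost it (adjusted p = 0.0571 to 0.144). Scaling by library totals (adjusted p = 0.058) or adding the heart muscle term (adjusted p = 0.339) lost it too. That term, the mean log2 CPM of the heart muscle markers, was −2.37, −2.45 and −0.02 in Dicer LKO. In control it was 0.09, 0.10 and 2.29. Every Dicer LKO library was below every control, so a fit with this term cannot separate it from genotype. The call of Cdkn2c was kept in DESeq2 (adjusted p = 3.21e-05) and in voom with sample weights (0.0264).

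The other CDK inhibitor genes tested were positive too, without a call. Cdkn1a, which encodes the p53-induced inhibitor p21, had 0.963, 34.8 and 0.876 CPM in Dicer LKO and 0.721, 1.58 and 3.83 CPM in control. Dicer LKO replicate 2, the library with the lowest Ccnd1 and the highest Rrm2, thus stood alone for Cdkn1a; the log2 fold change of 2.61 (SE 1.66, adjusted p = 0.435) became −1.08 without it. Cdkn1b, encoding p27, had 21.7, 26.5 and 25.9 CPM in Dicer LKO and 21.7, 21.9 and 19.5 CPM in control (0.23, SE 0.14).

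Among 34 further genes of the replication machinery, 31 were tested, 21 were positive and the median was 0.11. Pclaf, a PCNA-binding factor, had 0.596, 1.33 and 0.717 CPM in Dicer LKO and 0.180, 0.720 and 0.191 CPM in control (1.23, SE 0.61, adjusted p = 0.293). Pole4, a small subunit of polymerase epsilon, had a value of 0.50 (SE 0.22), and Rnaseh2a, a subunit of the RNase that removes RNA from DNA, of −0.19 (SE 0.23). The 7 further nucleotide enzymes were the only list with a negative median, −0.06. Tk1, the thymidine salvage kinase, had 8.21, 3.72 and 15.5 CPM in Dicer LKO and 18.9, 15.5 and 8.99 CPM in control (−0.66, SE 0.53, adjusted p = 0.529), Samhd1, which degrades deoxynucleotides, was at −0.31 (SE 0.25) and Dctpp1 at −0.06 (SE 0.31). The signs of Rnaseh2a (0.0067 and 0.047) and Dctpp1 (0.070 and 0.364) turned when Dicer LKO replicate 2 or control replicate 1 was left out.

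Of 18 tested G1/S regulators, 10 were positive, with a median of 0.03. The groups did not overlap for 3 that were higher in Dicer LKO (16.7%, against 12.7% of all genes). They also did not overlap for 3 that were lower (16.7%, against 15.4%). Cdc25a, the phosphatase that activates CDK2, had 4.22, 4.34 and 5.74 CPM in Dicer LKO and 3.20, 2.98 and 2.87 CPM in control, without overlap (0.66, SE 0.21, adjusted p = 0.140). Ccna2, which encodes cyclin A2, had 1.10, 2.95 and 1.24 CPM in Dicer LKO and 0.901, 1.10 and 0.510 CPM in control (1.04, SE 0.48, adjusted p = 0.264). Cdk4 was at 0.19 (SE 0.17). The 3 lower genes, named after their values were seen, were Cdk6, Cdk2 and Tfdp2. Cdk6, a kinase partner of D-type cyclins, had 35.1, 19.1 and 40.9 CPM in Dicer LKO and 42.3, 47.5 and 55.9 CPM in control (−0.61, SE 0.27, adjusted p = 0.248). Cdk2, the partner of cyclins E and A, was at −0.28 (SE 0.16), and Tfdp2, a dimer partner of E2F proteins, at −0.26 (SE 0.14). Of 7 tested S phase chromatin genes, 6 were positive with a median of 0.13. Atad2, a chromatin-bound ATPase, was at 0.49 (SE 0.20, adjusted p = 0.219), Slbp, which binds histone transcripts, at 0.18 (SE 0.13) and Cdca7 at 0.33 (SE 0.38).

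Markers of several other cells of the liver moved with the groups, and the calls below stand against 1.29% of all genes. Of 11 tested erythroid markers 8 were positive and 6 were called, and the summed level of the 14 listed was 1189 to 2160 CPM in Dicer LKO and 302 to 406 CPM in control. The globin genes Hba-a1, Hba-a2, Hbb-bs and Hbb-bt made up most of each sum. The 3 negative erythroid markers were Alas2 (−0.58, without overlap), Klf1 (−0.55) and Epor (−0.32), none of them called. All 15 macrophage markers were positive and 2 were called, with sums of 609 to 781 CPM in Dicer LKO and 295 to 642 CPM in control. All 10 tested neutrophil markers were positive with none called, with sums of 42.5 to 96.1 CPM in Dicer LKO and 3.32 to 29.7 CPM in control; 6 of the 11 listed had no counts in control replicate 3. Of the bile duct, stellate and endothelial markers tested, 6 of 9, 9 of 11 and 8 of 9 were positive, with 3, 2 and 1 called. Of the B and plasma cell markers 4 of 5 tested were positive and of the T and NK cell markers 3 of 4, with none called by edgeR; 1 and 0 had an unadjusted p under 0.05. In whole liver, a change in the number of cells of a type and a change in RNA per cell cannot be told apart. The part of these markers in the values of the replication genes was not tested.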

How the data were processed

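RNA from whole liver was sequenced in 3 Dicer LKO and 3 control samples; groups and replicate numbers come from the sample titles. The authors deposited, per the file headers, an expected count (an unnormalized estimate of reads) and a TPM value (corrected for transcript length) for every gene in each sample, in the column layout of RSEM. CASAVA and Bowtie are named in the submitters' processing notes, which list only the human build hg19 beside mouse gene identifiers. The mouse build and the strand setting were not given in these sources. Of the expected counts, 96.05% to 96.48% were whole; they were rounded to whole numbers. The table of the whole series was not used here.

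After filterByExpr and TMM scaling, genes were tested with edgeR 4.0.16 (glmQLFit with the robust setting, glmQLFTest; R 4.3.3) on all 14314 genes that passed, with genotype as the only term and Benjamini-Hochberg adjustment; a gene was called under 0.05. Each SE was derived from the log2 fold change and its F statistic. DESeq2 1.42.0 and voom (limma 3.58.1) were alternatives, with other scalings, no filter, a heart muscle covariate, the replicate number as a block and each library left out. Coordinates, overlaps and 3′ untranslated regions come from GENCODE M21 (GRCm38), promoters and miRNAs from RefSeq (GRCm38.p6). The smallest chi-square per gene between any 2 libraries was 26.2, so each counted as 1 sample. The largest values, 352 and 334, were those of Dicer LKO replicate 2 against control replicates 1 and 3.

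The 40 genes, the other gene lists and the tests were chosen with earlier results of these data known, and the motifs and miRNA families after that; counts and medians over lists are therefore descriptions. Values per library are given for the gene with the highest TPM and up to 2 with the largest fold changes per role group. They are also given for Ccnd1, Pcna, Mcm2 and E2f1. Genes of the further lists were chosen likewise, some with values per library and the rest with a log2 fold change and SE only. Other genes were named after their values were seen. Precision is limited by depth: floors and intervals for low counts would cover counting error only, so low genes are given as counts.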

Additional observations from a re-analysis of the deposited data

How the results depend on the processing

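The number of all genes called was 185, but 422 without a filter, 103 with library totals, 787 with voom, 1114 with DESeq2 and 2 with the heart muscle term, and to 23 to 389 without 1 library. Of the 40 genes 0 were called in every setting except DESeq2 and the replicate block, which called 1 each, Mcm10 (adjusted p = 0.000868 and 0.0201). The median log2 fold change of the tested genes was 0.153 with library totals, which shifted the median of all genes to −0.13, and 0.23 to 0.33 without 1 library. With voom it was 0.174, while the median of all genes was 0.00447. The difference between these 2 medians was thus 0.17 with voom, against 0.277 in the main fit and 0.285 with library totals. Tested genes without overlap numbered 8, and 11 to 15 without 1 library; fewer libraries make overlap rarer. For fits that leave CPM unchanged this count has no separate value. Dicer1 passed the threshold at −0.98 without a filter, −0.99 with DESeq2, −1.11 with voom and −1.15 without control replicate 1 (range −1.15 to −0.79 without 1 library). Of the further pathway genes, 0 were called with library totals, the replicate block, the heart muscle term or without any 1 library; Cdkn2c was then at 1.77, 1.87, 1.85 and 1.63 to 2.16.

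Of 36 tested genes, 29 kept their sign in all 6 fits without 1 library and 23 in every setting. Signs turned with library totals for Mcm7 (−0.018), Prim1 (−0.090) and Pold1 (−0.12); with the heart muscle term for Mcm3 (−0.094), Gins3 (0.077), Pole (0.374), Pola1 (0.076), Pcna (−0.066), Rrm2 (−0.073), Uhrf1 (−0.22), Cdk4 (−0.081) and Cdca7 (−0.48); with voom for Gins3 (0.021), Prim1 (−0.038), Pold1 (−0.013), Dctpp1 (0.080) and Cdkn1a (−0.15); with the block for Dctpp1 (0.026). Without 1 library they turned for Mcm7 (−0.081 to 0.251), Gins1 (−0.097 to 0.336), Gins3 (−0.188 to 0.0062), Pold1 (−0.146 to 0.276), Pole (−0.323 to 0.061), Ccne2 (−0.453 to 0.259), E2f8 (−0.56 to 1.21), Rnaseh2a (−0.301 to 0.047), Dctpp1 (−0.293 to 0.364) and Cdkn1a (−1.08 to 3.42). The heart muscle term was lower in every Dicer LKO library than in every control. Calls lost and signs turned with that term therefore cannot be separated from genotype. The cause of the turned signs was not tested. Same-numbered libraries deviated from their group means with correlations of 0.109, 0.065 and −0.0964. Dicer LKO replicate 1 correlated best with control replicate 1. Dicer LKO replicate 2 correlated best with control replicate 3 (0.0842), and Dicer LKO replicate 3 with control replicate 1 (0.105). With 3 libraries per group, such correlations cannot decide whether the numbers pair the samples. Genes under about 20 counts per library are limited by depth.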

Other observations

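Genes of mitosis, the step after replication, had higher fold changes than the replication genes. Of 18 listed, 14 were tested, all 14 were positive and none was called by edgeR (1.29% of all genes), while 7 had an unadjusted p under 0.05 (21.0% of all genes); the median log2 fold change was 0.98, against 0.27 for the replication and G1/S genes. The list passes the filter more easily where it is high, so this count is a description. Set against the control mean, the median mitosis gene was at 0.80, 1.41 and 0.41 log2 units for Dicer LKO and at −0.33, 0.37 and 0.04 for control, in replicate order. Top2a, the topoisomerase that untangles replicated DNA, had 4.36, 8.34 and 3.63 CPM in Dicer LKO and 1.67, 2.93 and 2.04 CPM in control (1.29, SE 0.37, edgeR adjusted p = 0.117). Mki67, the proliferation marker Ki-67, had 7.11, 15.3 and 5.90 CPM in Dicer LKO and 3.06, 7.11 and 4.08 CPM in control (0.98, SE 0.45, adjusted p = 0.268).

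Dicer LKO replicate 2 also stood apart for Tfrc, the transferrin receptor, with 178 CPM, against 41.3 and 19.8 CPM in the other Dicer LKO libraries and 22.7, 16.9 and 24.9 CPM in control; this gene was chosen after its values were seen.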
